A study of Mus musculus with 12 samples.

Results

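The change in gene expression between 2 and 12 weeks of age was measured in islets of Tg7 mice, which overexpress miR-7a2 in β-cells. It was read from 6 of the 12 islet libraries of the study, 3 from Tg7 islets at 2 weeks (2w) and 3 from Tg7 islets at 12 weeks (12w), over the 15961 of 37991 annotated genes that passed an expression filter. All mice were male C57BL/6. Tg7 animals carry a transgene for miR-7a2, and wild-type (Wt) littermates of both ages gave the other 6 libraries. Each library was a pool of islets from several animals, so p values measure the spread between pools and not between single mice. Which promoter drives the transgene is not stated in the sources used here. Whole islets were sequenced, so less RNA per cell and fewer cells of a type cannot be told apart in any value below.

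Islets are clusters of hormone-producing cells in which insulin-secreting β-cells make up the largest population, beside glucagon-producing α-cells, somatostatin-producing δ-cells and a stroma of endothelial cells, pericytes and fibroblasts. Around birth and weaning, rodent β-cells multiply and express fetal growth genes, and later they divide rarely and devote much of their protein synthesis to insulin, which is folded in the endoplasmic reticulum (ER). miR-7 is an abundant islet microRNA that lowers the level of mRNAs with matching sites.

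The microRNA is shown because it defines the genotype. RefSeq (build GRCm38.p6) lists the same mature miR-7a-5p for the loci Mir7-1 and Mir7-2, and a close relative, miR-7b-5p, from Mir7b. The bases in capitals are positions 2 to 8, the seed through which targets are recognised, which all 3 loci share.
mmu-miR-7a-5p: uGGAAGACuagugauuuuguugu
mmu-miR-7b-5p: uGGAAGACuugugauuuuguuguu
The libraries do not measure mature microRNAs. Reads counted on the Mir7-2 locus numbered 0, 6 and 8 in the 2w Tg7 libraries and 2, 1 and 8 in the 12w Tg7 libraries, against 2 to 13 in Wt libraries, and do not check the labels.

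TMM factors from edgeR set the scale of the libraries, and levels are given in CPM, counts relative to the scaled library size, in the order of replicates 1, 2 and 3. Log2 fold changes compare 12w with 2w, so that positive values mean higher at 12w. Adjusted p values come from edgeR's quasi-likelihood test on all 12 libraries, with Benjamini-Hochberg adjustment over all 15961 genes. A gene below 0.05 is called changed. Any single gene described below as having risen or fallen in Tg7 islets kept that call when each of the 6 Tg7 libraries was left out in turn, unless libraries that ended the call are given with it. The 6 Tg7 libraries held 13975695 to 17064546 counts on genes. On the first principal component (31.9% of the variance) the Tg7 libraries lay apart from the Wt libraries, and the second (24.3%) separated the ages in Tg7 islets.

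Between 2w and 12w, 2078 genes changed in Tg7 islets, 13.0% of those tested. A total of 1119 rose (7.01%) and 959 fell (6.01%), and the estimate reached at least 2-fold for 440 and 532 of them. The median log2 fold change of all tested genes was −0.01. Scaling by library size alone moved that median to −0.13 and called 1706 genes, of which 37.8% rose, against 53.8% of the calls with TMM factors. Leaving out Tg7 12w replicate 1, 2 or 3 gave 1115, 1210 or 1212 genes, and 3329 were called without Wt 12w replicate 4, a library whose insulin share and position on the second component lay apart from those of the other 12w Wt libraries. Of the 2078 genes, 928 were called with each Tg7 library left out. For the gene lists described below this held for 17 of the 24 called proliferation genes, 15 of 22 in the unfolded protein response, 10 of 11 in cholesterol synthesis, 13 of 17 collagens, 16 of 22 matricellular genes and 10 of 16 β-cell function genes.

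In Wt islets, 2524 genes changed over the same ages (15.8%), with 1261 rising (7.90%) and 1263 falling (7.91%). With library size alone 7.89% of the genes called in Wt islets rose, against 50%. The Tg7 and Wt contrasts share no library. Both genotypes called 996 genes with a shared direction, 465 up and 531 down, which is 47.9% of the Tg7 genes and 39.5% of the Wt genes. Of the 2078 Tg7 genes, 1865 had an estimate of the same sign in Wt islets, and across all tested genes the Pearson correlation of the log2 fold changes was 0.435 (a description over 15961 genes, which are not independent). Whether a change differed between the genotypes was tested as the Tg7 change minus the Wt change. This difference passed for 188 genes (1.18%), positive for 139 (0.871%) and negative for 49 (0.307%). Of the 188 genes, 70 were called with each of the 12 libraries left out in turn. With library size alone 347 differed and 93.1% were positive, against 73.9%. The difference was also called for 127 of the Tg7 genes, of which 50 rose in Tg7 islets and were not called in Wt islets, and 32 fell in both genotypes but less in Tg7.

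**Figure D1:**
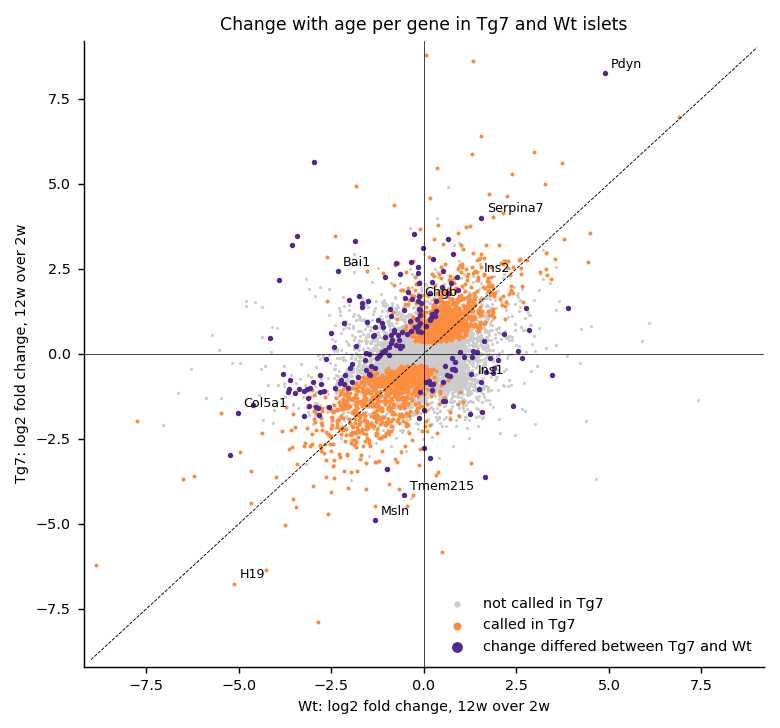
Log2 fold change from 2w to 12w in Wt (horizontal axis) and Tg7 islets (vertical axis), 1 point per tested gene, with equal changes on the dashed line. Orange points are genes called in Tg7 islets and purple points are the 188 genes whose change differed between the genotypes. Pdyn and H19 are the labelled points farthest from 0 on the Tg7 axis, and collagen genes such as Col5a1 lie above the diagonal at the left.

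Cell cycle genes fell together. The proliferation list held 37 genes, all tested, of which 24 fell and none rose, with a median log2 fold change of −1.72. Mki67, the antigen used to mark cycling cells (ENSMUSG00000031004, mm9 chromosome 7, 142881471 to 142908062), had 87.3, 27.8 and 76.9 CPM at 2w and 12.1, 12.0 and 13.0 CPM at 12w. All 2w libraries lay above all 12w libraries, and 2w replicate 2 was the lowest of its group (log2 fold change −2.37, SE 0.36, adjusted p = 7.24e-04). Top2a, which untangles replicated DNA, went from 70.3, 20 and 52.2 CPM to 5.30, 6.86 and 8.92 CPM (−2.76, SE 0.41, adjusted p = 6.33e-04). The largest falls in the list were in Aurkb, the kinase of the chromosomal passenger complex (−3.12, adjusted p = 0.00247), and Bub1, a kinase of the spindle checkpoint (−2.87, adjusted p = 0.00826). Tpx2, a spindle assembly factor, fell by 2.38 on the log2 scale, Cdk1, the mitotic kinase, by 2.23, and Foxm1, a transcription factor of mitotic genes, by 2.32. Iqgap3, a scaffold protein outside the list that was among the 8 lowest fold changes named by rule, fell from 10.5, 3.25 and 12.3 CPM to 0.959, 0.609 and 0.801 CPM (−3.45, adjusted p = 4.08e-04).

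The 13 members of the list that were not called had log2 fold changes between −1.43 (Tk1, thymidine kinase, adjusted p = 0.0633) and 0.60 (Ccne1, cyclin E1, adjusted p = 0.359). Of the genes of DNA replication in the list, Cdc6, which loads the replicative helicase, was called (−1.60, adjusted p = 0.0299), a call lost with any Tg7 library left out, while the helicase subunits Mcm2, Mcm3, Mcm5 and Mcm6 had −0.06, −0.93, −0.62 and 0.17 and were not called. In Wt islets 21 members of the list fell and none rose (median −1.40), and for none of the 37 did the change differ between Tg7 and Wt islets. Without Tg7 2w replicate 1, or without any 1 of the 12w Tg7 libraries, 19 members fell in Tg7 islets.

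The promoters of these genes are shown because most of those searched for members that fell hold a short element, TTTGAA. It is known as the cell cycle genes homology region (CHR), which DREAM-type repressor complexes bind. The element is named for cell cycle genes, so its share in a list of such genes is no result about Tg7 islets. It was searched on both strands of the 300 bases from 250 before to 50 after each start site in the RefSeq table (GRCm38.p6). Of the 37 list members, 30 had a promoter there and 14 of those held TTTGAA (46.7%), against 20.2% of the 27025 genes in the table and 14.3% of the tested genes with a promoter. Among the 24 genes that fell, 19 had a promoter and 13 held it. CCAAT was present in 73.3% of the list's promoters, 41.1% of all and 42.4% of the tested genes. The E2F site GCGGGAA was present in 10.0% of the list's promoters, 5.29% of all and 9.18% of the tested genes, and in 5.26% of the promoters of genes that fell. These matches describe letters in a window and are no measure of binding. The following windows carry the element in capitals, read on the strand on which it reads TTTGAA, with 12 bases on each side.
Mki67 (chr7:135716478-135716507, minus strand): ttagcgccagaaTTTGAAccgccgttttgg
Mki67, nearer the start (chr7:135716460-135716489, minus strand): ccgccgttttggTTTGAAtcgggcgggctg
Top2a (chr11:99024351-99024380, minus strand): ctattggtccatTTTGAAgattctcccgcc
Cdk1 (chr10:69352966-69352995, minus strand): ctgattggctccTTTGAAcgtctacgtgca
Cdc20 (chr4:118437344-118437373, minus strand): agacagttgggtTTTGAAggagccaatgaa
Prc1 (chr7:80294434-80294463, plus strand): cctctggctcggTTTGAAttccgcggggtc
Cdc20, an activator of the anaphase-promoting complex, fell by 2.32 on the log2 scale, and Prc1, which bundles microtubules at the spindle midzone, by 1.74. Mcm2 also held TTTGAA and was not called (−0.06, adjusted p = 0.867).

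Several fetal and imprinted growth genes fell as well, though these lists did not move in 1 direction. H19, an imprinted noncoding RNA of the fetus (ENSMUSG00000000031, mm9 chromosome 7, 149761434 to 149764048), had 23.9, 8.77 and 25.0 CPM at 2w and 0.0564, 0.221 and 0.229 CPM at 12w. It was the lowest fold change of the genes named by rule (−6.77, SE 0.56, adjusted p = 9.72e-06) and fell in Wt islets too (−5.13, adjusted p = 3.04e-04). Igf2, which lies beside H19 and encodes a fetal growth factor, had 20.2, 10.5 and 20.4 CPM at 2w and 14.3, 15.4 and 10.2 CPM at 12w, with overlapping groups (−0.36, adjusted p = 0.395). In the imprinted list, 7 of 20 tested members were called lower and 3 higher, with a median of −0.31, and 8 had higher estimates at 12w. Of these 10 calls, 5 were kept with each Tg7 library left out. The summed level of the list was 7720 to 9180 CPM at 2w and 8970 to 9350 CPM at 12w in Tg7 islets. Peg10, a gene derived from a retrotransposon, fell from 69.6 ± 5.92 to 10.9 ± 2.59 CPM (SD, n = 3; −2.67), Zim1, a zinc finger gene, by 1.95 on the log2 scale, Grb10, an inhibitor of insulin and IGF receptor signalling, from 184 ± 14.2 to 50.6 ± 3.23 CPM (SD, n = 3; −1.86, adjusted p = 5.60e-06), and Cdkn1c, a cell cycle inhibitor, by 1.30. In Wt islets 8 of these members fell and none rose. Dlk1, a transmembrane protein of the Notch ligand type, went the other way in the 2 genotypes. It had 83.9, 54.8 and 91.6 CPM at 2w and 129, 172 and 138 CPM at 12w in Tg7 islets, where its call was lost without any 1 of the 12w libraries or without 2w replicate 1 or 2 (0.93, and 0.74 to 1.01 with these left out). In Wt islets Dlk1 fell (−1.54, adjusted p = 0.00234), and the difference of 2.47 (SE 0.38, adjusted p = 0.00651) was called with each of the 12 libraries left out.

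The let-7 oncofetal list, mRNAs of the fetal programme that let-7 microRNAs repress, had 14 tested members, of which 4 fell and none rose (median −0.50). Igf2bp2 and Igf2bp3 encode RNA-binding proteins. Igf2bp2 fell from 22.5, 21.9 and 25.0 CPM to 3.50, 6.09 and 7.44 CPM (−2.03, SE 0.24, adjusted p = 1.56e-04). Igf2bp3 had 188 counts over the 2w libraries and 2 over the 12w libraries, a ratio of 92.3 (95% counting interval 25.2 to 768). Hmga2, a chromatin protein, had 65 and 2 counts, a ratio of 31.9 (8.49 to 269), and Peg12 had 43 and 3, a ratio of 14.1 (4.50 to 70.9). These intervals cover counting error only. The calls of Hmga2 (−4.73, and −7.25 to −3.55 with a library left out) and Peg12 (−3.66, and −4.50 to −2.73) were lost without any 1 of the 12w libraries or without 2w replicate 1, and that of Peg12 also without 2w replicate 2.

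**Figure D2:**
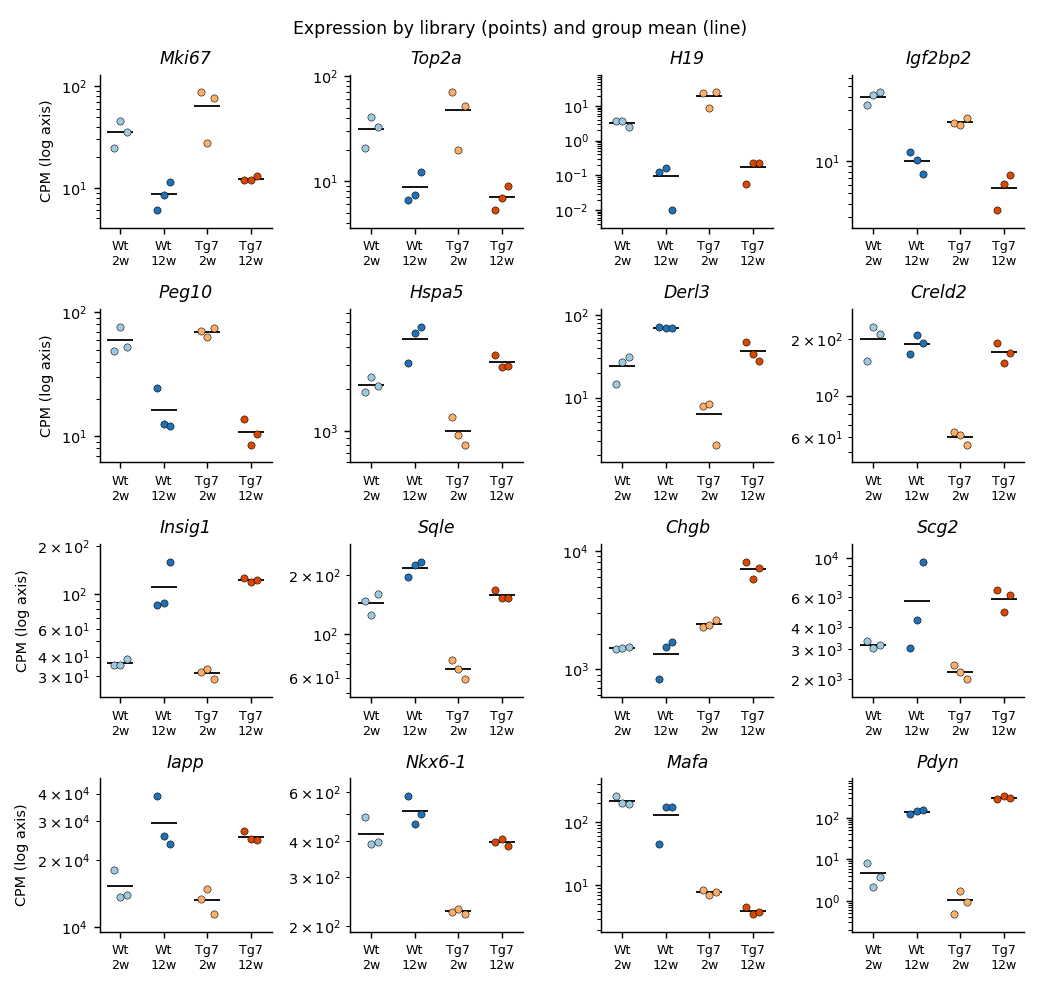
CPM of 16 genes (log axis, each panel with its own range) in Wt and Tg7 islets at 2w and 12w, with 1 point per library and a line at the group mean; a library without counts is drawn at 0.01. Mki67, Top2a, H19, Igf2bp2 and Peg10 are lower at 12w in both genotypes, whereas Chgb is higher at 12w in Tg7 islets and not in Wt islets.

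Genes of the ER folding machinery rose. Of 34 genes in the unfolded protein response (UPR) list, 22 rose and none fell in Tg7 islets, with a median log2 fold change of 0.67. In Wt islets 11 rose and none fell (median 0.47). The summed level of the list was 6970 to 8260 CPM in the 2w Tg7 libraries and 14400 to 16400 CPM at 12w, against 12800 to 14600 and 16100 to 23700 CPM in Wt. Hspa5, the main ER chaperone BiP (ENSMUSG00000026864, mm9 chromosome 2, 34627490 to 34632051), had 1270, 931 and 800 CPM at 2w and 3510, 2862 and 2935 CPM at 12w. The groups did not overlap (1.63, SE 0.23, adjusted p = 4.42e-04). Derl3, a channel component of ER-associated degradation, showed the largest rise of the list, from 7.95, 8.31 and 2.68 CPM to 47.9, 33.6 and 27.6 CPM (2.54, SE 0.36, adjusted p = 4.94e-04). Sdf2l1, an ER protein of the chaperone network, rose by 1.69, Manf, an ER-resident survival factor, by 1.40, Dnajc3, a co-chaperone, by 1.33, and Pdia6, a disulphide isomerase, by 1.28 on the log2 scale. Xbp1, the transcription factor spliced by the sensor IRE1, rose by 0.71 (adjusted p = 0.00134).

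Members of the list downstream of the kinase PERK stayed below the threshold. Atf4, Trib3, Asns, Chac1, Ppp1r15a and Ddit3 had log2 fold changes between −0.34 and 0.59 (adjusted p = 0.217 to 0.932), and the sensors Ern1, Atf6 and Eif2ak3 between −0.28 and 0.20. Creld2, an ER protein with disulphide isomerase activity, was the only member whose change differed between the genotypes. It had 63.8, 61.5 and 54.6 CPM at 2w and 192, 149 and 168 CPM at 12w in Tg7 islets, and 153, 233 and 212 CPM and 166, 211 and 190 CPM in Wt islets. The change was 1.5 in Tg7 (adjusted p = 6.29e-05) and −0.07 in Wt islets (adjusted p = 0.790), a difference of 1.57 (SE 0.23, adjusted p = 0.00363) that was called with each of the 12 libraries left out. All 2w Tg7 libraries lay below all Wt libraries, and of the 12w Tg7 libraries 2 lay within the range of the Wt libraries and replicate 2 below it.

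The ER stress response element (ERSE) is shown because it was frequent in these promoters. It is CCAAT, 9 bases of any kind, then CCACG, so each match is also a CCAAT match, and it was chosen for display after the values were seen. The element is named for the ER stress response, so its share in a list of such genes is no result about Tg7 islets. Of the 34 members 30 had a promoter in the RefSeq table and 9 of these held the element (30.0%). It was present in 37 of the 27025 genes in the table (0.137%) and in 19 of the 10635 tested genes with a promoter (0.179%). Among the 22 genes that rose, 19 had a promoter and 8 held the element. These matches, too, are no measure of binding. The 19 bases in capitals are read on the strand on which CCAAT comes first.
Hspa5 (chr2:34772013-34772055, plus strand): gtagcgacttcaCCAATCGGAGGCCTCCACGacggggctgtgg
Pdia6 (chr12:17266479-17266521, plus strand): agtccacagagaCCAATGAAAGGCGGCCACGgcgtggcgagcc
Dnajc3 (chr14:118937815-118937857, plus strand): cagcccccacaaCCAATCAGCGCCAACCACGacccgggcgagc
Creld2 (chr15:88819508-88819550, minus strand of a plus-strand gene): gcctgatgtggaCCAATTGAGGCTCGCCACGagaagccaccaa
Derl3 (chr10:75893230-75893272, minus strand of a plus-strand gene): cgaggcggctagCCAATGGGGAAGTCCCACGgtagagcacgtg
Syvn1, an ER ubiquitin ligase, held the element and was not called (0.31, adjusted p = 0.207).

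**Figure D3:**
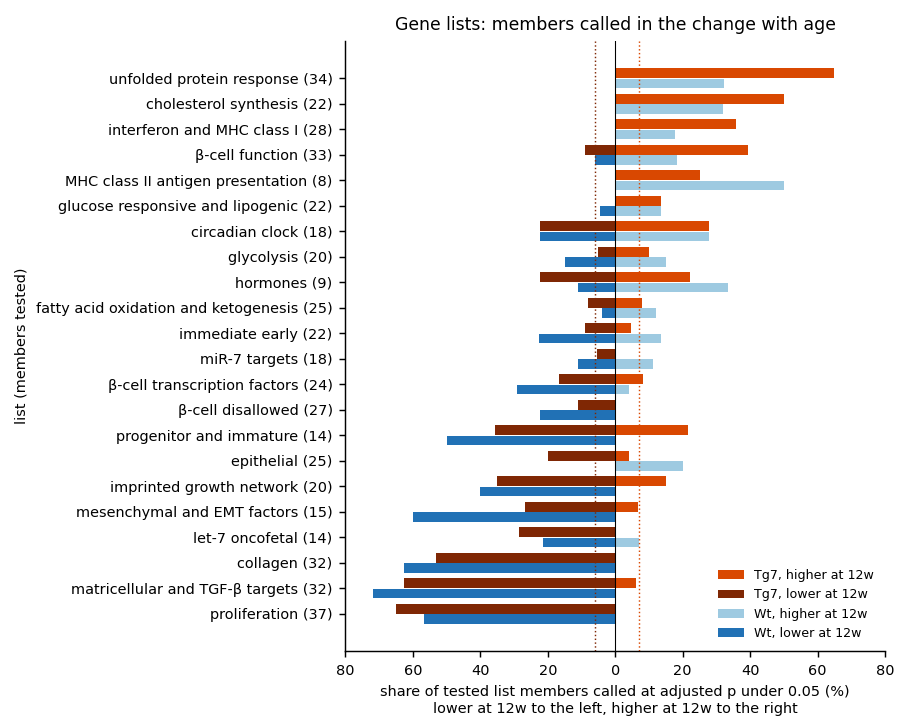
Share of the tested members of 22 gene lists called higher (to the right) or lower (to the left) at 12w than at 2w, in percent, with the number tested beside the list name. Dotted lines mark the shares of all tested genes called in Tg7 islets, 7.01% higher and 6.01% lower. Cell type marker lists are not drawn. Of the lists drawn, the UPR and cholesterol lists lie farthest to the right and the proliferation list farthest to the left in Tg7 islets.

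Cholesterol synthesis genes rose as well, 11 of 22 with none falling (median 0.88), against 7 and none in Wt islets (median 0.54). Insig1, an ER regulator of sterol synthesis, had 32.1, 33.4 and 28.7 CPM at 2w and 126, 118 and 123 CPM at 12w (1.97, SE 0.20, adjusted p = 4.25e-05). Sc4mol (Msmo1), a sterol demethylase, rose by 1.61, Sqle, squalene epoxidase, by 1.25, Fdft1, squalene synthase, by 1.18, and Srebf2, the transcription factor of the pathway, by 1.04 on the log2 scale. For none of the 22 did the change differ between the genotypes.

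Among the hormones, Ins2 rose and Ins1 did not. Ins2, 1 of the 2 mouse insulin genes (ENSMUSG00000000215, mm9 chromosome 7, 149864561 to 149885415), had 12679, 21898 and 9740 CPM at 2w and 71170, 69139 and 70589 CPM at 12w (2.25, SE 0.37, adjusted p = 0.00127). Ins1 (ENSMUSG00000035804, mm9 chromosome 19, 52338813 to 52339946) had 9361, 15235 and 5729 CPM and 6565, 5352 and 6029 CPM, with overlapping groups (−0.76, SE 0.38, adjusted p = 0.212). In Wt islets both rose, Ins2 by 1.47 (adjusted p = 0.0140) and Ins1 by 1.30 (adjusted p = 0.0325). The difference between the genotypes was −2.06 for Ins1 (adjusted p = 0.0824) and 0.78 for Ins2 (adjusted p = 0.513), neither of which passed. The ratio of Ins2 to Ins1 counts, examined after the values were seen, was 1.35, 1.44 and 1.70 in the 2w Tg7 libraries and 10.8, 12.9 and 11.7 in the 12w Tg7 libraries (1.5 ± 0.18 and 11.8 ± 1.04, SD, n = 3). In Wt islets it was 2.35 ± 0.144 and 2.74 ± 0.246 (SD, n = 3). The log2 ratio rose by 2.98 in Tg7 islets, with each 12w library above each 2w library (two-sided exact permutation test, p = 0.1, the smallest that 3 against 3 allows), and by 0.21 in Wt islets (exact permutation p = 0.2). The 2 genes are similar in sequence, and how reads common to both were assigned is not stated in the sources used here, so their split is uncertain. Together they took up 2.62%, 4.09% and 1.84% of all counts at 2w and 8.08%, 8.11% and 8.24% at 12w, a difference of 5.30 percentage points (exact permutation p = 0.1, again the smallest possible).

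**Figure D4:**
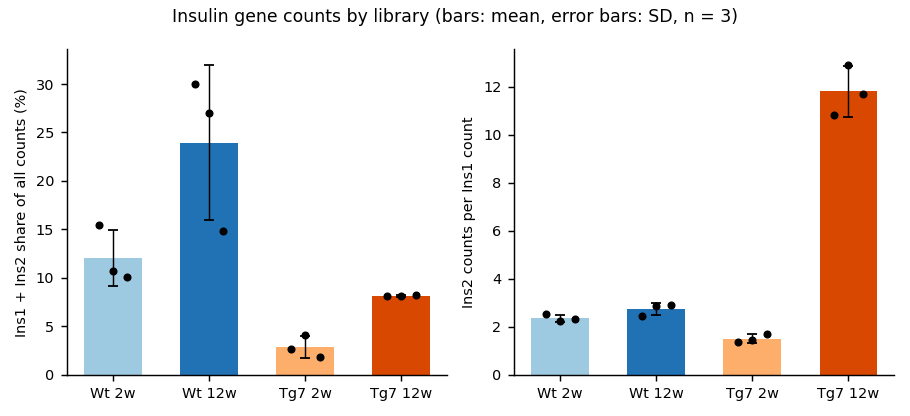
Share of all counts on Ins1 and Ins2 in percent (left) and Ins2 counts per Ins1 count (right) in each group, with bars at the mean, error bars of 1 SD (n = 3) and 1 point per library. The 3 Tg7 libraries at 12w lie at ratios of 10.8 to 12.9, above all other libraries, while their insulin share of 8.08% to 8.24% lies below all Wt libraries.

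Iapp, the amyloid peptide secreted with insulin, rose from 13363, 14781 and 11450 CPM to 27113, 24971 and 24753 CPM (0.96, SE 0.21, adjusted p = 0.00918), as much as in Wt islets (0.95). Ghrl, the hormone ghrelin, fell from 14.5, 13.8 and 17.7 CPM to 2.37, 6.86 and 4.52 CPM (−1.74, adjusted p = 0.00139). The glucagon gene Gcg had 42633, 76985 and 48597 CPM at 2w and 41168, 28338 and 27366 CPM at 12w (−0.80, adjusted p = 0.0811), below the threshold here but called with DESeq2, with library size alone, without the filter and with replicate number as a block. Sst, somatostatin, was not called (0.29, adjusted p = 0.535).

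Of 33 β-cell function genes, 13 rose and 3 fell in Tg7 islets (median 0.40), against 6 and 2 in Wt islets. Proteins of the secretory granule led those that rose. Chgb, a granin that packs hormones in granules (ENSMUSG00000027350, mm9 chromosome 2, 132607014 to 132620815), had 2278, 2362 and 2621 CPM at 2w and 8137, 5816 and 7102 CPM at 12w (1.54, SE 0.23, adjusted p = 6.48e-04). In Wt islets it had 1477, 1513 and 1532 CPM at 2w and 820, 1536 and 1712 CPM at 12w (−0.15, adjusted p = 0.680). The difference of 1.69 passed (adjusted p = 0.0195) but was lost without Tg7 12w replicate 1 or 3 or Wt 2w replicate 2 or 3 (1.60 to 1.69). Scg2, secretogranin 2, rose by 1.41 (adjusted p = 0.00835), and G6pc2, a glucose phosphatase of β-cells, from 118, 111 and 72.4 CPM to 255, 221 and 256 CPM (1.28, adjusted p = 7.90e-04). Pcsk1, a proinsulin convertase, rose by 1.23 (adjusted p = 0.0130), a call lost without Tg7 2w replicate 2 (1.11) and with library size alone. Entpd3, an ectonucleotidase of β-cells, rose by 0.90 in Tg7 islets and had −0.12 in Wt islets, a difference of 1.02 (adjusted p = 0.00791) called with each library left out. Slc30a8, the zinc transporter of the insulin granule, fell from 391, 397 and 339 CPM to 190, 221 and 190 CPM (−0.91, adjusted p = 5.42e-04) and had 0.24 in Wt islets, a difference of −1.15 (adjusted p = 0.00782) that also held with each library left out.

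The transcription factors of β-cells moved little as a group. Of 24 tested members 2 rose and 4 fell (median −0.09). Nkx6-1, a factor needed for β-cell identity, rose from 225, 231 and 221 CPM to 399, 408 and 385 CPM (0.81, SE 0.13, adjusted p = 8.24e-04). Rfx3, a ciliary and endocrine factor, fell by 0.66 on the log2 scale. Mafa, the factor of mature β-cells, had 8.48, 6.95 and 7.95 CPM at 2w and 4.57, 3.54 and 3.83 CPM at 12w, against 189 to 254 CPM and 45.4 to 170 CPM in Wt islets. Its change in Tg7 islets (−0.97, SE 0.40, adjusted p = 0.129) was not called, although it was with DESeq2, with the 6 Tg7 libraries alone and without the filter. Ucn3, a peptide of mature β-cells, had 17.0, 22.0 and 21.4 CPM and then 11.1, 13.4 and 12.8 CPM (−0.69, adjusted p = 0.153), called only with the 6 Tg7 libraries alone, against 170 to 382 CPM and 267 to 518 CPM in Wt. Neither Pdx1 (0.19, adjusted p = 0.592) nor the glucose transporter Slc2a2 (−0.07, adjusted p = 0.905) was called, and the estimate of Slc2a2 turned positive without Tg7 12w replicate 1, 2w replicate 1 or 2w replicate 3 (0.18, 0.04 and 0.05).

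Progenitor and immaturity genes were mixed. Of 14 tested members 3 were called higher and 5 lower at 12w (median −0.43), against none and 7 in Wt islets. Of these 8 calls in Tg7 islets, 3 were kept with each Tg7 library left out. Aldh1a3, a retinoic acid enzyme used as a marker of dedifferentiated β-cells, rose from 3.79, 2.14 and 2.38 CPM to 18.7, 12.1 and 18.5 CPM (2.56, SE 0.50, adjusted p = 0.00388). In Wt islets it had 1.29 (adjusted p = 0.120), and the difference was not called (adjusted p = 0.459). Myc fell by 0.89 and Sox4, a factor of endocrine progenitors, by 0.55 on the log2 scale. Gast, the gastrin gene, had 1.39, 2.01 and 1.09 CPM and then 3.61, 4.48 and 5.03 CPM in Tg7 islets (1.55, adjusted p = 0.0116; 1.44 and not called without Tg7 12w replicate 3), while it fell in Wt islets (−1.52, adjusted p = 0.0274). The 18 genes listed as miR-7 targets had a median of −0.01, and 1 was called (5.56%, against 13.0% of all tested genes). It was the kinase gene Mknk2 (−0.44, adjusted p = 0.0433), a call that was lost with any Tg7 library left out.

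Extracellular matrix genes fell, and less so than in Wt islets. Of 32 tested collagen genes, 17 fell and none rose in Tg7 islets (median −0.78), against 20 and none in Wt islets (median −1.97). For 11 of them the change differed between the genotypes, always with the smaller fall in Tg7 islets. Col4a1, a basement membrane collagen, fell in Tg7 islets from 805, 711 and 687 CPM to 200, 215 and 212 CPM (−1.81, SE 0.16, adjusted p = 1.51e-05) and by 2.85 on the log2 scale in Wt islets. Col5a1, a fibrillar collagen (ENSMUSG00000026837, mm9 chromosome 2, 27741945 to 27895034), had 48.4, 28.3 and 41.5 CPM at 2w and 11.4, 11.1 and 13.0 CPM at 12w in Tg7 islets, and 28.5, 27.6 and 22.9 CPM and 0.378, 1.03 and 0.867 CPM in Wt islets. Its change was −1.74 in Tg7 and −5.02 in Wt islets, a difference of 3.28 (SE 0.36, adjusted p = 5.30e-04). Col3a1 fell in Tg7 islets from 198, 155 and 174 CPM to 86.6, 91.6 and 80.6 CPM (−1.03), and in Wt islets from 122, 98.3 and 75.4 CPM to 5.42, 10.5 and 7.27 CPM (−3.65), a difference of 2.63 (SE 0.29, adjusted p = 5.51e-04). Col1a1, Col3a1, Col4a2, Col5a1, Col5a2, Col5a3, Col6a1, Col6a2 and Col15a1 kept the difference with each of the 12 libraries left out. The difference of Col4a1 (1.03, adjusted p = 0.0422) was lost with 10 of the 12 left out in turn (0.87 to 1.12), all but Tg7 2w replicate 1 and Wt 12w replicate 4. That of Col1a2 (1.49) was lost with 8 left out (1.31 to 1.55), namely each 12w Tg7 library, Tg7 2w replicates 2 and 3, Wt 12w replicate 1 and Wt 2w replicates 1 and 2.

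**Figure D5:**
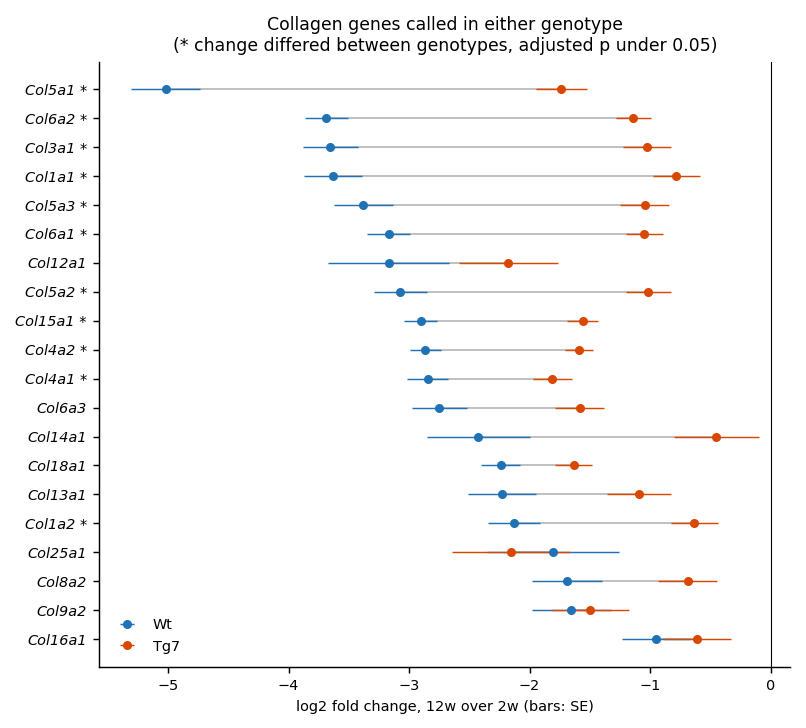
Log2 fold change from 2w to 12w, with SE, of the 20 collagen genes called in at least 1 genotype, in Wt (blue) and Tg7 islets (orange). Asterisks mark the 11 genes whose change differed between the genotypes, and in each of these the orange point lies nearer to 0.

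Matricellular proteins and TGFβ targets followed the collagens. Of 32 genes 20 fell and 2 rose in Tg7 islets (median −1.07), against 23 and none in Wt islets (median −1.80), and the change differed for 6. Eln, elastin, fell from 48.5, 23.3 and 36.9 CPM to 3.38, 2.93 and 2.63 CPM (−3.60, SE 0.35, adjusted p = 3.06e-05). Fn1, fibronectin, had 194, 22.3 and 32.7 CPM at 2w and 5.30, 8.52 and 6.46 CPM at 12w. Tg7 2w replicate 1 lay far above the other 2w libraries, and the log2 fold change of −3.62 was −2.03 without it, called in both cases. Tnc, tenascin C, was likewise highest in that library, and fell by 2.82 on the log2 scale (adjusted p = 5.56e-04). Ctgf, a connective tissue growth factor, fell by 1.30 on the log2 scale in Tg7 and by 3.13 in Wt islets, a difference of 1.84 (adjusted p = 0.00433) called with each library left out. Ltbp2, a latent TGFβ binding protein, had the opposite difference. It fell from 27.9, 13.6 and 13.9 CPM to 1.92, 1.55 and 1.83 CPM in Tg7 islets (−3.38) and had −1.0 in Wt islets, with a difference of −2.38 (adjusted p = 0.0437) that was lost with 9 of the 12 libraries left out (−2.51 to −1.89), all but Tg7 2w replicate 2 and Wt 12w replicates 2 and 4. Spp1, osteopontin, which is also a ductal marker, rose from 76.7, 85.1 and 115 CPM to 490, 200 and 289 CPM (1.82, adjusted p = 8.87e-04). Of the 15 tested mesenchymal and EMT factors 4 were called lower and 1 higher at 12w (median −0.81), against 9 and none in Wt islets, and of these 5 calls only that of Fn1 was kept with each Tg7 library left out. Vim, vimentin (−0.81, adjusted p = 0.0340), and the repressor Zeb2 (−0.95, adjusted p = 0.0214) were each lost with 5 of the 6 Tg7 libraries left out, which are all but 2w replicate 3 for Vim and all but 2w replicate 2 for Zeb2 (−0.85 to −0.60 and −0.97 to −0.86). Cdh2, N-cadherin, was not called (0.30, adjusted p = 0.382), though it was with the 6 Tg7 libraries alone and with the replicate block.

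Stromal markers moved with the matrix genes. The summed level of 15 stellate cell, pericyte and fibroblast markers, 3 of which are collagens, was 625 to 793 CPM at 2w and 438 to 471 CPM at 12w in Tg7 islets, and 414 to 584 and 105 to 178 CPM in Wt islets. In Tg7 islets 8 of the 15 were called lower and 1 higher, against 12 and none in Wt islets. Of these 9 calls in Tg7 islets, 4 were kept with each Tg7 library left out. Pdgfrb, a receptor of pericytes, fell by 1.09 on the log2 scale in Tg7 islets, with a difference of 1.60 from Wt islets (adjusted p = 0.00176) that held with each library left out. The 15 endothelial markers summed to 1440 to 1550 CPM at 2w and 1090 to 1150 CPM at 12w in Tg7 islets, against 1290 to 1610 and 549 to 677 CPM in Wt islets, with 6 and 14 of them falling. None of the 15 markers of either list was at 0. The part of these cells in the matrix changes was not tested.

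Of the called genes with a mean of at least 5 CPM at either age and no overlap between the ages, the 8 with the highest fold changes in Tg7 islets follow. Pdyn, the opioid precursor prodynorphin (ENSMUSG00000027400, mm9 chromosome 2, 129512301 to 129525580), had 0.480, 1.69 and 0.944 CPM at 2w and 286, 335 and 302 CPM at 12w (8.24, SE 0.45, adjusted p = 2.87e-07). It rose in Wt islets from 8.25, 2.14 and 3.67 CPM to 125, 145 and 153 CPM (4.90), and the difference of 3.35 (SE 0.54, adjusted p = 0.00791) was called with each library left out. Pdyn is on the δ-cell marker list, whose other 6 tested members include 2 that fell, Hhex (−0.98) and Rbp4 (−0.65, lost with any Tg7 library left out), and none that rose. Serpina7, thyroxine-binding globulin, rose from 11.6, 11.2 and 7.75 CPM to 182, 130 and 176 CPM (4.0, SE 0.35, adjusted p = 1.40e-05) and by 1.55 in Wt islets, a difference of 2.45 (adjusted p = 0.0247) lost without Tg7 12w replicate 1 or 3, Tg7 2w replicate 3 or Wt 2w replicate 2 or 3 (2.25 to 2.49). Ache, acetylcholinesterase, went from 2.03, 7.21 and 1.84 CPM to 52.7, 45.1 and 47.5 CPM (3.74, adjusted p = 9.64e-05), and had 1.24 in Wt islets (adjusted p = 0.0583). Slitrk3, a synaptic adhesion protein, and Jakmip3, a microtubule-associated protein, were near 0 at 2w and had 5.86, 8.08 and 7.27 CPM and 4.0, 5.20 and 6.35 CPM at 12w. Slitrk3 had at most 0.267 CPM in any Wt library and Jakmip3 at most 0.0532 CPM. Astn1, astrotactin, went from 1.87, 1.95 and 0.348 CPM to 20, 12.1 and 15.3 CPM (3.52, adjusted p = 3.83e-04), Akap3 from 0.373, 1.04 and 0.497 CPM to 7.10, 8.91 and 9.95 CPM (3.78) and Pde11a, a cyclic nucleotide phosphodiesterase, from 0.694, 0.260 and 0.497 CPM to 6.88, 4.04 and 5.32 CPM (3.45). These 8 genes were chosen partly because their libraries did not overlap between the ages. The difference between the genotypes was not called for Slitrk3 (adjusted p = 0.208), Jakmip3 (adjusted p = 0.376), Akap3 (adjusted p = 0.203) or Ache (adjusted p = 0.0552).

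Among the lowest fold changes, Msln, mesothelin (ENSMUSG00000063011, mm9 chromosome 17, 25885559 to 25891272), fell from 30.6, 27.5 and 36.5 CPM to 1.30, 0.941 and 0.915 CPM (−4.90, SE 0.25, adjusted p = 2.80e-07). In Wt islets it fell by 1.32 on the log2 scale, from 112 ± 20.6 to 44.9 ± 10.9 CPM (SD, n = 3), a difference of −3.58 (SE 0.31, adjusted p = 7.36e-05) called with each library left out. Msln is a mesothelial marker, and that list had 3 tested members of 8, with a summed level over all 8 of 35.7 to 57.0 CPM at 2w and 5.26 to 8.24 CPM at 12w in Tg7 islets, while Lrrn4 was at 0 in every Tg7 library. Tmem215, a transmembrane protein, fell from 19, 13.5 and 17.0 CPM to 0.507, 1.16 and 1.09 CPM (−4.16, adjusted p = 1.99e-06) and had 145 ± 18.4 and 100 ± 27.0 CPM in Wt islets (SD, n = 3; −0.53, adjusted p = 0.0894), a difference of −3.63 (adjusted p = 1.53e-04) that held with each library left out. Mfap4, a microfibril protein, fell from 20.4, 18.8 and 15.6 CPM to 0.677, 1.11 and 0.801 CPM (−4.39), and in Wt islets by 4.68 on the log2 scale. Capn11, a calpain, fell from 4.0, 3.51 and 8.10 CPM to 0.338, 0.443 and 0.458 CPM (−3.63, adjusted p = 0.00382) and had 1.64 in Wt islets (adjusted p = 0.126), a difference of −5.27 (adjusted p = 0.0192) lost without any 1 of the 12w Tg7 libraries, Tg7 2w replicate 3 or Wt 2w replicate 3 (−5.35 to −4.75).

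Genes changed in opposite directions in the 2 genotypes were few. There were 21, of which 15 rose in Tg7 islets and fell in Wt islets and 6 the reverse. Bai1, an adhesion G protein-coupled receptor, had 3.04, 3.05 and 1.69 CPM at 2w and 14.7, 12.2 and 15.1 CPM at 12w in Tg7 islets (2.43, adjusted p = 1.73e-04) and fell by 2.33 on the log2 scale in Wt islets, a difference of 4.76 (SE 0.61, adjusted p = 0.00161) called with each library left out. T2 had 3.68, 4.48 and 6.06 CPM and then 1.86, 1.72 and 1.26 CPM in Tg7 islets (−1.55, lost without Tg7 12w replicate 2 or 3 or Tg7 2w replicate 3), and rose by 2.40 in Wt islets, a difference of −3.96 (adjusted p = 0.00235) that held with each library left out.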

How the data were processed

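RNA of whole islets was sequenced in 12 libraries, 3 for each genotype and age, grouped by the GEO labels. The values used are raw counts per gene that the authors deposited. The reads were paired-end. The submitters' processing notes name bcl2fastq 2.20.0, Trimmomatic, TopHat2 2.0.11, featureCounts and the genome mm9, whereas the study's methods name CASAVA for demultiplexing. No source used here states the version or strand mode of featureCounts, so overlapping and antisense genes cannot be told apart. GENCODE vM1 gave names and mm9 positions for 37205 of 37991 identifiers.

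Genes were kept by filterByExpr (minimum count 10, minimum total 15). A quasi-likelihood model with 4 group means was fitted to all 12 libraries with TMM factors in edgeR 4.0.16 (R 4.3.3), and 3 contrasts were tested at an adjusted p of 0.05. Each SE was derived from the fold change and its F statistic. Insulin shares and ratios were compared with the two-sided exact permutation test of scipy 1.17.1. Alternatives were DESeq2 1.42.0, other scalings and filters, the 6 libraries of 1 genotype alone, replicate number as a block, and leaving out each library. Genes named are the 8 highest and 8 lowest called fold changes with a mean of at least 5 CPM and no overlap between ages, up to 4 called members per list, a fixed set of islet markers, and the 5 highest and 5 lowest differences between genotypes. Other genes named in the text were chosen after their values were seen. Members and gene lists were chosen with earlier results of these data known. Results for 2 genes are not reported here.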

Additional observations from a re-analysis of the deposited data

Results flagged for a closer look

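The change from 2w to 12w differed between Tg7 and Wt islets for 188 genes. This difference was tested as the Tg7 change minus the Wt change with edgeR's quasi-likelihood test. Of the 188 genes, 70 kept the call with each of the 12 libraries left out in turn. Some named genes of the 188 follow as log2 differences. Others, such as Dlk1, Ctgf, Pdgfrb, Slc30a8 and Entpd3, are described above and not repeated. Collagen genes had positive differences, 3.28 for Col5a1, 2.85 for Col1a1, 2.63 for Col3a1, 2.55 for Col6a2, 2.33 for Col5a3, 2.12 for Col6a1, 2.06 for Col5a2, 1.49 for Col1a2, 1.34 for Col15a1, 1.27 for Col4a2 and 1.03 for Col4a1. The summed levels of stromal and endothelial markers moved with them, and their part in these differences was not tested.

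Positive differences were also found for Pde11a (6.87), Moxd1 (6.76), 2810468N07Rik (6.09), Bai1 (4.76), Astn1 (3.80), Pdyn (3.35), Gast (3.07), Serpina7 (2.45), Chgb (1.69) and Creld2 (1.57). Negative differences were found for Capn11 (−5.27), T2 (−3.96), Tmem215 (−3.63), Msln (−3.58), Rpp25 (−3.26) and Ltbp2 (−2.38). Of those not described above, the difference of 2810468N07Rik was called with each of the 12 libraries left out. That of Pde11a was lost without Tg7 12w replicate 1 or Wt 2w replicate 2 (6.13 to 6.69), and that of Moxd1 without Tg7 12w replicate 1, Wt 12w replicate 1 or Wt 2w replicate 1 or 3 (5.97 to 6.74). That of Astn1 was lost without Tg7 12w replicate 1 or 3 or any 1 of the Wt 2w libraries (3.61 to 3.90), that of Gast without Tg7 12w replicate 2 or 3 or Wt 2w replicate 2 (2.90 to 3.06), and that of Rpp25 with 8 of the 12 libraries left out (−3.39 to −2.86), all but Tg7 12w replicate 2, Tg7 2w replicates 1 and 2 and Wt 12w replicate 4.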

How the results depend on the processing

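The number of genes changed with age in Tg7 islets, 2078 in the report, was 3441 with the 6 Tg7 libraries alone and 1115 to 3329 with a library left out, the highest without Wt 12w replicate 4. In Wt islets it was 1283 with the 6 Wt libraries alone, 4120 with library size alone, 3817 with the replicate block and 1336 to 4020 with a library left out. The genes that differed between the genotypes numbered 607 with DESeq2, 347 with library size alone, 420 without the filter, 502 with the replicate block and 82 to 579 with a library left out. Those shared in direction numbered 579 to 1617 with a library left out. The fold change of Slc2a2 turned to 0.18 without Tg7 12w replicate 1, 0.04 without Tg7 2w replicate 1 and 0.05 without Tg7 2w replicate 3, and ranged from −0.29 to 0.18 over the Tg7 libraries left out. The cause of these shifts was not tested. Counts of the proliferation, UPR, cholesterol, collagen and matricellular lists stayed within 1.5 times the reported ones under every alternative run. Of 97 called named genes, 65 kept the call with each Tg7 library left out. The labels do not say whether replicate numbers pair the samples. Deviations of same-numbered Tg7 libraries correlated at 0.13, −0.01 and 0.18, and those of differently numbered Tg7 libraries of the 2 ages at −0.19 to 0.07. With the replicate block 3088 genes were called in Tg7 islets. Whether the numbers mark pairs cannot be told from these values. With 3 libraries a group, genes with few counts give wide estimates.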

Other observations

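Clock genes changed in both directions, 5 of 18 up and 4 down in Tg7 islets, the same counts as in Wt islets. Arntl, the activator of the positive limb, fell from 12.2, 15.5 and 14.3 CPM to 2.37, 3.71 and 2.75 CPM (−2.24, SE 0.27, adjusted p = 1.36e-04). Nfil3, a repressor, fell by 1.21 on the log2 scale. Dbp, an output activator, rose by 1.60 and Nr1d1, which represses Arntl, by 1.46. The time of day of tissue collection was not used here.

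Of 28 interferon and MHC class I genes 10 rose and none fell (median 0.64), against 5 and none in Wt islets. Ifit1, an interferon-induced RNA-binding protein, rose from 6.94, 9.42 and 5.61 CPM to 18.7, 22.2 and 21.7 CPM (1.51, adjusted p = 0.00209). Usp18, which removes ISG15, rose by 1.51, and both kept the call with each Tg7 library left out, as did 4 of the 10 in all. Neither MHC class II gene called, of 8, kept it. Macrophage markers summed to 73.9 to 125 CPM at 2w and 94.3 to 103 CPM at 12w. Of the 13 tested, 1 was called (7.69%, against 13.0% of all tested genes), and 5 had lower estimates at 12w (median 0.13). The gene called was C1qa, a complement subunit, which rose by 1.12. T and NK markers summed to 7.0 to 39.4 CPM and then 3.43 to 5.81 CPM, with Prf1 at 0. Only 2 of these 16 markers were tested, and 1, Lck, was called lower, a call lost with any Tg7 library left out. B cell markers summed to 45.9 to 100 CPM and 34.1 to 52.1 CPM, with overlapping ranges, and none of the 7 tested was called. The part of these cells was not tested.

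Among α-cell markers 2 rose and 5 fell of 11 tested. Gc, vitamin D binding protein, rose by 1.67, while Pou3f4, a POU factor, fell by 2.94 and Irx1, a homeobox factor, by 1.28. Of 27 disallowed genes, kept low in mature β-cells, 3 were called lower and none higher, led by the chemokine Cxcl12 (−1.79). That is 11.1% of the list called, against 13.0% of all tested genes, and 2 of the 3 calls were kept with each Tg7 library left out. Pdk4, which inhibits pyruvate dehydrogenase, fell by 1.79. Against 7.01% of all tested genes called higher and 6.01% called lower, 2 and 2 of 25 fatty acid oxidation genes, 2 and 1 of 20 glycolytic genes and 1 and 2 of 22 immediate early genes were called, shares near that background. Of 22 lipogenic genes 3 were called higher, and of 25 epithelial genes 1 higher and 5 lower. With each Tg7 library left out, 3 of the 4 fatty acid oxidation, 1 of 3 glycolytic, 0 of 3 immediate early, 2 of 3 lipogenic and 1 of 6 epithelial calls were kept. Acinar markers summed to 31.8 to 42.1 CPM at 2w and 18.8 to 22.0 CPM at 12w, with Amy2a5 and Amy2b at 0. Adipocyte markers summed to 17.0 to 20.7 and 47.1 to 55.1 CPM, and Cidea, a lipid droplet protein, rose by 2.12. Only 5 of the 11 adipocyte markers were tested, however, and Adipoq and Plin1 were among those that failed the filter. Of these 5, 2 were called higher and 2 had lower estimates at 12w. With each Tg7 library left out, 1 of the 2 calls was kept. Ductal markers summed to 565 to 738 and 753 to 1050 CPM. Of the 8 tested ductal markers, however, 6 had lower estimates at 12w (median −0.42), with 2 called lower and only Spp1 called higher. Of these 3 calls only that of Spp1 was kept with each Tg7 library left out. Schwann markers summed to 137 to 176 and 131 to 137 CPM, and erythroid markers to 13.8 to 27.3 and 40.7 to 58.4 CPM.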
